A study of Mus musculus with 22 samples.

Results

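The regions described here are 223 sites of open chromatin in mouse macrophages that carried a peak in every sample without lipopolysaccharide and in no sample with it, whether or not lactic acid was present. Peaks of 12 ATAC-seq lists were merged into 1 site wherever they shared at least 1 bp, which gave 127890 sites. A site was kept when it had a peak in all 3 LA and all 3 control samples and none in any of the 3 LPS+LA or 3 LPS samples. That left 223 sites, 0.174% of all sites. The sites were thus chosen by the presence and absence of peaks, and their loss with LPS is a description with no test.

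Bone marrow-derived macrophages of C57/BL6 mice, grown for 7 days in medium with L929 supernatant, were treated for 3 h. Cells received LPS at 100 ng/ml, LPS with L-(+)-lactic acid (LA) at 10 mM, LA alone at a dose the labels do not state, or nothing (control), and ATAC-seq was made from 50000 cells per sample with 3 samples per group. RNA-seq covered the same 4 groups and 1 more, LPS in medium brought to a low pH with HCl (for example pH 6.5), with 2 libraries per group. Whether the replicates of a group are different cultures or different mice is not stated, so each p-value here measures the spread between libraries, which may be technical.

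LPS, a component of the outer membrane of Gram-negative bacteria, is sensed by the receptor TLR4 and switches macrophages within hours to an inflammatory programme led by NF-kB, AP-1 and interferon regulatory factors. Open chromatin away from gene starts often marks enhancers, stretches bound by transcription factors that can act on a gene from a distance. In resting macrophages such stretches are held open by lineage factors such as PU.1, C/EBP, MEF2 and MAF proteins, and inflammatory signals can both open and close them. Lactic acid acidifies the medium and accumulates where cells run glycolysis at a high rate.

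The RNA libraries held 18668648 to 20219888 counts each. Summed levels of 8 macrophage markers lay between 13181 and 18967 CPM (counts scaled to a common library size) in every library. Summed levels of T cell, B cell, neutrophil, dendritic cell, mast cell and erythroid markers stayed at or below 5.95 CPM. The 5 fibroblast markers summed to 10.95 and 10.2 CPM in LPS libraries, against 0.323 and 0.601 CPM in control libraries, and to 0.589 and 0.527 CPM in LPS+LA libraries, against 0.571 and 0 CPM in LA libraries. In LPS libraries nearly all of that sum was Pdgfrb, at 10.4 and 10.1 CPM, while the collagen genes Col1a1 and Col3a1 were at 0. Neuron markers summed to 30.8 CPM in LPS+HCl replicate 2 and 17.5 CPM in control replicate 1, while no other library passed 3.67 CPM. In bulk samples, fewer cells of a type and less RNA per cell cannot be told apart. The headers of the ATAC-seq lists put the LPS and control samples on 1 sequencing lane and the LPS+LA and LA samples on another. Each effect of LPS on the peaks is therefore a comparison within a lane, while LPS+LA against LPS and LA against control cannot be told apart from the lane there. These headers give no lane for the RNA libraries.

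Of the 213 sites on chromosomes with promoter windows, 3 overlapped such a window. A window ran from 250 bases before to 50 bases after an annotated gene start (RefSeq, GRCm38.p6). Windows were also missing for some genes beside closed sites, among them Klf10, St3gal1, Prag1 and Rb1. An overlap with the starts of such genes could not be seen, and no promoter sequence was available under any other site. The overlapped windows belong to Slco2b1, which encodes an organic anion transporter, and to Emp3, which encodes a small membrane protein. The third gene is the predicted gene Gm14010, which the RNA table did not list. The Slco2b1 window is chr7:99706793-99707092 on the minus strand and lies entirely within its site, chr7:99706743-99707536. The Emp3 window is chr7:45921377-45921676 on the minus strand, and 268 of its 300 bases lie within the site chr7:45921263-45921644. The nearest peak of any LPS or LPS+LA list lay 335 bp from that site. Both windows are shown because they are the protein-coding promoter windows, among those available, that lost a peak. Capitals mark the matches to the motif words searched.
Slco2b1: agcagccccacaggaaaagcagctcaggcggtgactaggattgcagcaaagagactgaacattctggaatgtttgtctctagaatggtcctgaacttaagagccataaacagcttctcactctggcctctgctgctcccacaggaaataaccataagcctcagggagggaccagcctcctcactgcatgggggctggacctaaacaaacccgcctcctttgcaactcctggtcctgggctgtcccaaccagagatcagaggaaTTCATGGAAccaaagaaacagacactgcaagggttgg
Emp3: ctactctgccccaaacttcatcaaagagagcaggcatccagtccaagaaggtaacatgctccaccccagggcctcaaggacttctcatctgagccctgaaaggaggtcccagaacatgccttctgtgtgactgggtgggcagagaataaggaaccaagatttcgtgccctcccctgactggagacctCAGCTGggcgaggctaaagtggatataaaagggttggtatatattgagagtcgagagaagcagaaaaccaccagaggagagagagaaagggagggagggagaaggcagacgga

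The search covered 17 motif words on both strands. The words were AGGAAGT for PU.1, TTGCNNAA for C/EBP, TGANTCA for AP-1, TGCTGAC for the MAF family, TGTGGTT for the RUNX family, GGGANTTCC for NF-kB and GAAANNGAA for the IRF family. They also included TTCNNNGAA for the STAT family, GGGCGGG for the SP family, GGGTGTG for the KLF family, GCGTGGG for the EGR family and AGATAA for the GATA family, with the MEF2 and CTCF motifs. The E-box was searched as CAGCTG, as the variant CACGTG and as the variant CACCTG. The Slco2b1 window held 1 match, the STAT word, whose first base is at position 14, counted from 1 at the gene start. That word occurred in 8.30% of all 32851 promoter windows. The Emp3 window held 1 match, the E-box CAGCTG, whose first base is at position -63 and which occurred in 16.3% of all windows. The 2 matches do not overlap any other word, and a match in a window is a description, not a site of binding. The PU.1, C/EBP, AP-1 and NF-kB words, found in 9.35%, 10.8%, 7.81% and 1.68% of all windows, matched neither window.

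Slco2b1 RNA was 4.67 and 4.96 CPM in LPS libraries, against 31.2 and 31.8 CPM in control libraries. It was 17.98 and 16.3 CPM in LPS+LA libraries, against 28.2 and 24.6 CPM in LA libraries. The groups did not overlap in either comparison, and the fall was larger without LA (difference 2.09, edgeR adjusted p = 6.46e-09). On the log2 scale, Slco2b1 fell by 2.71 with LPS (SE 0.151, adjusted p = 9.04e-14) and by 0.62 with LPS in LA (SE 0.127, adjusted p = 0.00045, both edgeR quasi-likelihood tests). Slco2b1 was not the gene nearest its site under the rule used below, because the shorter Gm34280 lies over the same bases, and it was singled out after its values were seen. Emp3 RNA was 531 and 527 CPM in LPS libraries, against 375 and 377 CPM in control libraries, a rise of 0.49 on the log2 scale (SE 0.0626, adjusted p = 2.69e-07, edgeR). It was 485 and 489 CPM in LPS+LA libraries, against 464 and 482 CPM in LA libraries, a difference of 0.04 that did not pass the test. Under total-count scaling the Emp3 change with LPS was -0.23, so its direction depends on the scaling described below.

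The 223 sites were part of what each comparison lost alone. LPS closed 3125 sites against control by the same rule of 3 samples against none, and LPS+LA closed 618 against LA. The shared 223 were 7.14% of the first set and 36.1% of the second. A site of the first set could be shared only with a peak in all 3 LA samples, which that set did not require. The second set likewise did not require control peaks. These shares are therefore not the part of the sites open in both states that closed in both. Of the 3125 sites, 283 instead had a peak in all 3 LPS+LA samples. The groups with and without LA were on different lanes, with lists of different lengths. Differences in these counts with LA therefore cannot be told apart from the lane. In the other direction, 3453 sites had peaks in all 6 LPS and LPS+LA samples and in no LA or control sample, 2.70% of all sites. With each list cut to the 76680 strongest peaks, the length of the shortest, the counts were 960 closed and 2276 opened sites. The cut drops weak peaks from the longer lists, and its part in the change of the counts was not tested.

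The peaks at these sites were weak ones. The authors' deposited peak score, which comes with no stated definition, ranked them at a median percentile of 20.8, 23.6 and 21.9 in the 3 LA samples and 35.3, 33.4 and 39.0 in the 3 control samples. Averaged over the 6 samples, 210 of the 223 sites (94.2%) lay under the 50th percentile, and the sites ranged from 6.34 to 64.3. At the 56120 sites with a peak in all 12 samples, the median percentile by sample was between 62.8 and 70.8. The ranking was lower in LA than in control at 190 of 223 sites (85.2%), and at 66.7% of the sites with a peak in all 12 samples. The lists differ in length and the 2 groups were on different lanes. This difference therefore cannot be told apart from the lane and is not read as a change in accessibility.

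**Figure D1:**
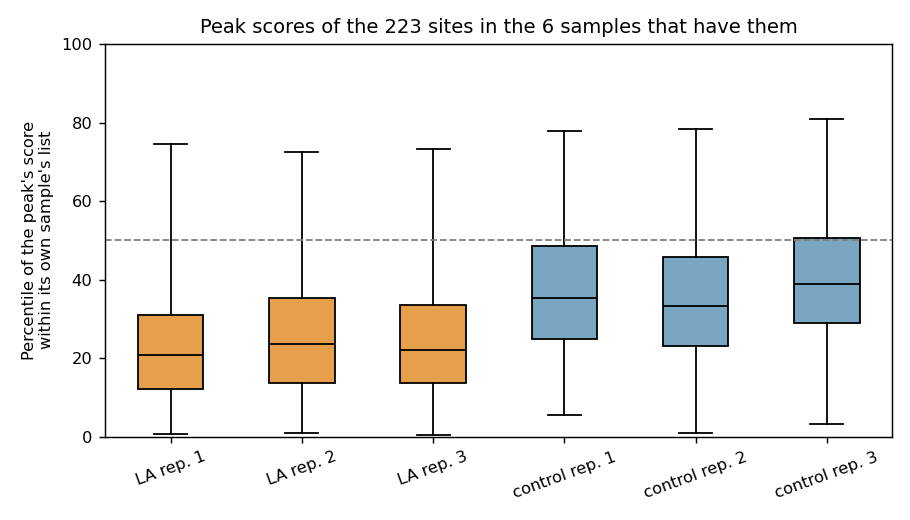
Percentile of the peak score within its own sample's list for the 223 sites, in LA samples (left, orange) and control samples (right, blue). Boxes span the quartiles with the median as a line, whiskers reach the lowest and highest site, and the dashed line marks the 50th percentile; the medians lie between 20.8 and 23.6 in LA samples and between 33.4 and 39.0 in control samples.

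Another 238 sites had all 6 LA and control peaks and a lone peak in 1 stimulated sample, most often LPS replicate 1 (69 sites), LPS+LA replicate 2 (58) or LPS+LA replicate 3 (57). A further 297 sites had no peak with LPS but lacked 1 of the 6 others, most often that of LA replicate 1 (146 sites), whose list was the shortest. Without LA replicate 1 the rule kept 369 sites. Among the 238 sites with 1 stray peak, median percentiles were 18.6 to 23.1 in LA samples and 33.0 to 36.2 in control samples. Among the 297 they were 12.2 to 12.7 in LA samples and 21.3 to 27.7 in control samples, under those of the 223 sites.

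The 223 sites had a median width of 367 bp, against 428 bp over all sites and 608 bp at sites with a peak in all 12 samples. The nearest peak in any LPS or LPS+LA list was a median of 1233 bp away, and 127 sites (57.0%) had none within 1000 bp. Most sites stood alone, with 6 pairs within 50 kb of each other. The closest pair, 1267 bp apart, lay near Id2, which encodes an inhibitor of basic helix-loop-helix factors. Other pairs lay near Spred2, Otulin and Zswim4, and 2 sites inside Ptpre were farther apart.

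Few of the sites lay within 1 kb of a gene start. Of the 213 sites on chromosomes with promoter windows, 3 (1.41%) overlapped a window, against 9.24% of all sites and 18.2% of sites with a peak in all 12 samples. The sites opened by LPS in both acid states had a like share, 1.20%. Within 1 kb of a gene start lay 3.76% of the closed sites, against 11.5% of all sites, while 20.7% of the closed sites and 11.4% of all sites lay 1 to 5 kb away. The median distance was 14202 bp, against 17504 bp over all sites. For every set of sites, distances run to the nearest gene start with a promoter window. Starts of genes without a window, such as Klf10 and Prag1, did not enter them. Annotated genes covered 150 of the 223 sites (67.3%), a share like the 69.1% over all sites. The closed sites were also weaker than sites with a peak in all 12 samples, and the part of peak strength in these shares was not tested.

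**Figure D2:**
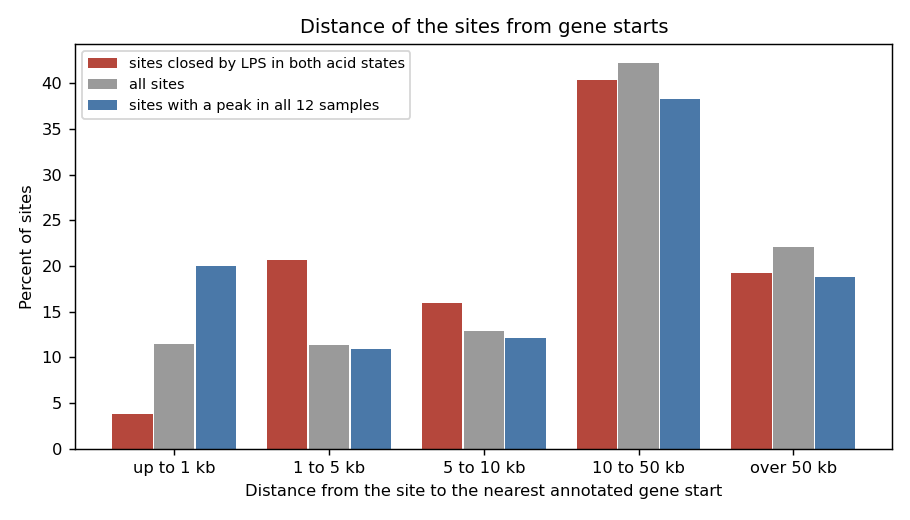
Percent of sites at each distance from the nearest annotated gene start with a promoter window, for the closed sites (red), all sites (grey) and sites with a peak in all 12 samples (blue). Up to 1 kb the closed sites have 3.76%, all sites 11.5% and sites with all 12 peaks 19.9%, and from 1 to 5 kb the closed sites have 20.7%, against 11.4% and 10.9%.

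The highest-ranked site lay inside Cask, which encodes a scaffold kinase of cell junctions, at chrX:13618400-13618964. Its percentiles were 50.1, 58.6 and 61.4 in LA samples and 70.4, 71.9 and 73.6 in control samples. The next lay inside Cmtm7 (chr9:114775273-114775745), at 36.3, 48.3 and 59.0 in LA samples and 77.8, 78.3 and 81.0 in control samples. The Emp3 promoter site came next, at 59.7, 53.7 and 54.8 in LA samples and 66.1, 64.6 and 65.6 in control samples. It was followed by sites near Cdkn2aipnl, Sez6, Atp8b2 and Ninj2 and by a site 112139 bp from Cebpb, the gene of the macrophage factor C/EBP beta, with mean percentiles between 54.7 and 58.8. Among these top sites the nearest peak of any LPS or LPS+LA list lay from 225 bp (Atp8b2) to 1716 bp (Cebpb) away.

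RNA of the genes nearest the strongest sites did not move one way. Cdkn2aipnl, 40129 bp from its site, had 30.0 and 32.8 CPM in LPS libraries, against 61.8 and 61.2 CPM in control libraries. It fell by 0.97 on the log2 scale with LPS and by 0.38 with LPS in LA (edgeR adjusted p = 1.29e-08 and 0.00435), the second call being lost without LA replicate 1, where the value was -0.24. Atp8b2, which encodes a phospholipid-transporting ATPase, had 65.7 and 74.9 CPM in LPS libraries, against 39.4 and 46.2 CPM in control libraries. It rose by 0.72 with LPS (edgeR adjusted p = 6.42e-07) but was at -0.0039 under total-count scaling. Cask rose by 0.53 with LPS (edgeR adjusted p = 0.000431) and was at -0.19 under total-count scaling. Cmtm7 differed by -0.02 with LPS and did not pass the test. Ninj2 was too low to test. Sez6, a neuronal gene, was at 0 in all 4 LPS and LPS+LA libraries and at 1.09 and 0.241 CPM in control libraries, and it was highest in control replicate 1, which also held the neuron transcripts.

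RNA was not used to choose the sites, so it can be compared across groups. Each site was joined to the gene whose bounds lay nearest, up to 50 kb away. This gave a gene for 192 sites, 128 of them inside the gene, and 187 different genes. Of these, 175 had enough counts to test and 12 did not. Closed sites upstream of their gene numbered 27 and downstream 21, with 16 outside genes whose strand is not given here.

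The genes beside closed sites did not fall together. With LPS against control, 54 of the 175 tested neighbours fell (30.9%), and 32.4% of all 12213 tested genes fell. In the same comparison 85 neighbours rose (48.6%), while 32.4% of all tested genes rose. The median change was 0.23 on the log2 scale for the neighbours and -0.05 for all tested genes. With LPS+LA against LA, 34 neighbours fell (19.4%) and 47 rose (26.9%), where 14.6% of all tested genes fell and 15.9% rose. The medians were 0.04 and -0.01. Without the 2 libraries with neuron transcripts, 78 of 174 neighbours rose and 49 fell with LPS, where 29.4% of all tested genes rose and 28.0% fell.

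The share of rises differed with the level of the genes. Neighbours had a median level of 52.9 CPM, against 23.7 CPM for all tested genes. Among genes at or above 52.9 CPM, 53 of 88 neighbours rose with LPS (60.2%), and so did 58.8% of all 3755 such genes, while 27.3% of the neighbours and 21.4% of all such genes fell. Among genes under that level, 32 of 87 neighbours rose (36.8%), against 20.8% of all, and 34.5% of neighbours fell, against 37.2% of all. With LPS in LA, 39.8% of neighbours and 32.4% of all genes at or above that level rose, and 17.0% and 10.5% fell. Under it 13.8% and 8.58% rose, and 21.8% and 16.4% fell. The level averages all 10 libraries, so a gene that rises with LPS is also placed higher by it. Neighbours were also longer, with a median of 48.2 kb against 23.2 kb, and among genes at least as long as the neighbours' median 35.0% rose and 30.4% fell with LPS. The part of level and length in the neighbours' shares was not tested further.

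The split between rises and falls also depended on how libraries were scaled. With libraries scaled to their total counts alone, LPS shifted the median of all genes by -0.77 on the log2 scale against control. Under that scaling 44 neighbours rose and 111 fell with LPS, while 14.4% of all tested genes rose and 67.9% fell. For LPS+LA against LA the median of all genes was -0.22, with 31 neighbours that rose and 64 that fell, where 10.6% of all tested genes rose and 34.9% fell. Under either scaling a larger share of neighbours than of all genes rose. With every gene within 50 kb of a site in place of the nearest, 149 of 389 rose with LPS (38.3%) and 128 fell (32.9%), closer to all tested genes.

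**Figure D3:**
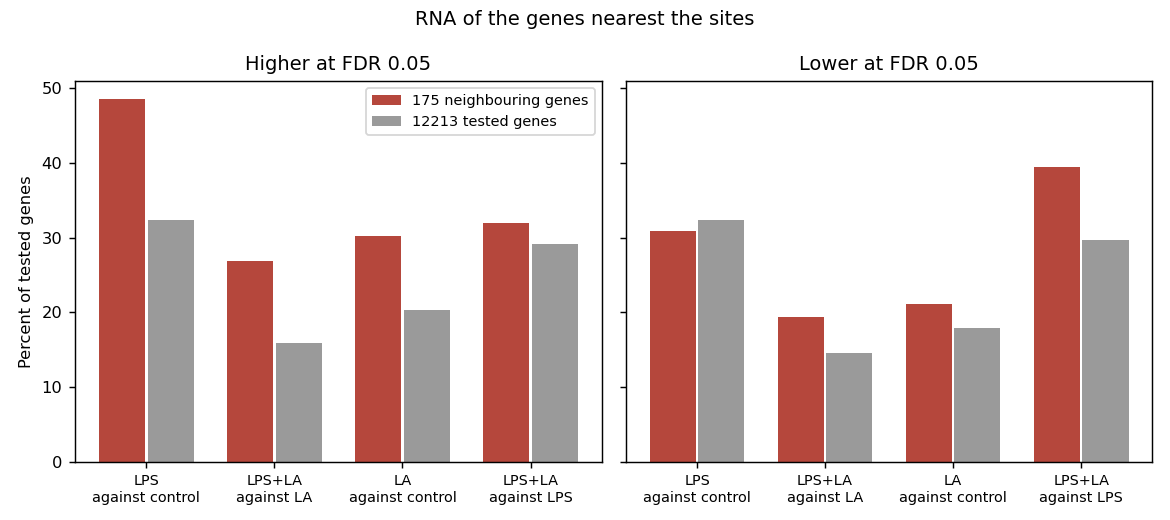
Percent of genes called higher (left) or lower (right) at an adjusted p under 0.05 in 4 RNA comparisons, for the 175 neighbouring genes (red) and all 12213 tested genes (grey). With LPS against control 48.6% of neighbours and 32.4% of all genes were higher, and 30.9% and 32.4% were lower.

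The effect of LPS differed between the acid states for many neighbours. In a test of the difference itself (the change with LPS in LA minus the change with LPS alone), 65 of 175 neighbours were lower (37.1%) and 47 higher (26.9%), against 23.9% and 20.4% of all tested genes. In both comparisons 27 neighbours fell (15.4%) and 41 rose (23.4%), against 11.5% and 13.9% of all tested genes. Another 26 neighbours (14.9%) passed as falls with LPS against control only, against 20.2% of all tested genes. None passed as a fall with LPS+LA against LA only, as 2.29% of all tested genes did. With LA against control 53 neighbours were higher (30.3%) and 37 lower (21.1%), where 20.4% and 17.9% of all tested genes were. With LPS+LA against LPS 56 neighbours were higher (32.0%) and 69 lower (39.4%), where 29.2% and 29.7% of all tested genes were. These last 2 comparisons share libraries with those above. Called in neither LPS comparison were 17.7% of neighbours and 31.5% of all tested genes. Neighbours had a higher median level (52.9 against 23.7 CPM), and its part in these shares was not tested.

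**Figure D4:**
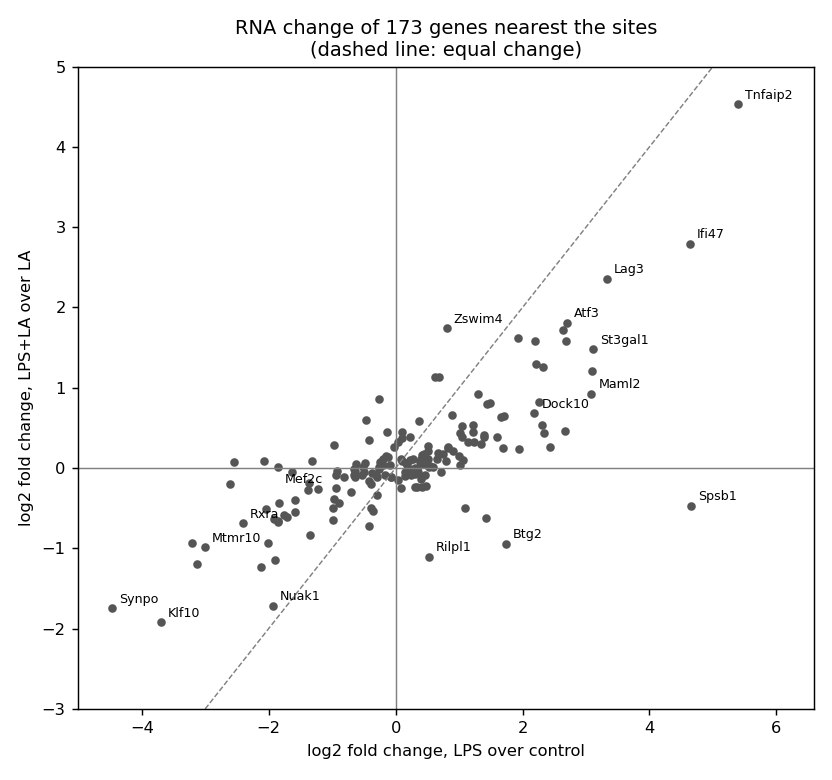
Change in RNA of 173 of the 175 tested neighbouring genes (2 at 0 in a whole group are left out) with LPS over control (horizontal, log2) and with LPS+LA over LA (vertical, log2), 1 point per gene, with the dashed line marking equal change. Points on the right lie mostly under the line; Tnfaip2 is farthest out at 5.40 and 4.53, and Spsb1, at 4.65 and -0.47, is farthest from the line.

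Klf10, a zinc-finger factor induced by TGF-beta, was among the neighbours with the largest falls with LPS and lies 1513 bp from the site chr15:38302224-38302553. Its RNA was 2.79 and 3.50 CPM in LPS libraries, against 44.6 and 37.2 CPM in control libraries. It was 75.2 and 67.8 CPM in LPS+LA libraries, against 320 and 221 CPM in LA libraries. The LPS+LA group lay under the LA group, while LPS under control was a condition of its naming as a large fall. LA alone raised the gene well above control. Klf10 fell by 3.70 on the log2 scale with LPS (SE 0.257, adjusted p = 2.60e-07) and by 1.92 with LPS in LA (SE 0.163, adjusted p = 4.96e-06, edgeR).

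Rxra encodes the retinoid X receptor alpha, the partner of many nuclear receptors, and holds a weak site at chr2:27762570-27762827. It had 6.93 and 7.27 CPM in LPS libraries, against 38.2 and 37.4 CPM in control libraries. It had 21.5 and 16.8 CPM in LPS+LA libraries, against 32.4 and 29.3 CPM in LA libraries. The LPS+LA and LA libraries did not overlap, while a lack of overlap between LPS and control was a condition of its naming as a large fall. Rxra fell by 2.41 with LPS (SE 0.143) and by 0.69 with LPS in LA (SE 0.125), with edgeR adjusted p = 3.13e-13 and 0.000119.

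Mef2c, a MADS-box factor of the myeloid and lymphoid lineages, holds a site at chr13:83545102-83545446. It had 34.2 and 36.9 CPM in LPS libraries, against 135 and 123 CPM in control libraries. It had 180 and 175 CPM in LPS+LA libraries, against 202 and 150 CPM in LA libraries, so these groups overlapped. Mef2c fell by 1.86 with LPS (SE 0.113, edgeR adjusted p = 1.90e-11) and differed by 0.01 with LPS in LA (SE 0.102, adjusted p = 0.96), although the site had lost its peak in both. The difference between the effects was 1.87 (edgeR adjusted p = 5.23e-09).

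Spred2, an inhibitor of Ras-ERK signalling with 2 closed sites, had 19.1 and 20.6 CPM in LPS libraries, against 60.7 and 62.9 CPM in control libraries. It had 74.1 and 69.1 CPM in LPS+LA libraries, against 74.3 and 73.9 CPM in LA libraries. It fell by 1.64 with LPS (SE 0.0951, edgeR adjusted p = 2.16e-13) and differed by -0.05 with LPS in LA. The LPS effect on Spred2 differed between the acid states by 1.59 (edgeR adjusted p = 3.36e-10).

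Other neighbours named for their fall with LPS were 6430548M08Rik, 2900026A02Rik, Mtmr10, Disc1, Midn, Ski, Rnf169 and Unc119, which fell by between 1.85 and 3.20 on the log2 scale with LPS and by between 0.51 and 1.19 with LPS in LA. Mtmr10, a myotubularin-related protein, had 7.52 and 5.15 CPM in LPS libraries, against 52.4 and 49.8 CPM in control libraries. Ski, a repressor of SMAD signalling, had 63.8 and 79.8 CPM in LPS libraries, against 261 and 273 CPM in control libraries. It had 180 and 181 CPM in LPS+LA libraries, against 422 and 380 CPM in LA libraries. These did not overlap, which the naming had required only of LPS and control. Midn, which encodes a protein that delivers nuclear proteins to the proteasome, had 32.5 and 36.6 CPM in LPS libraries, against 126 and 135 CPM in control libraries. The fall of Disc1 with LPS in LA rested on a narrow margin (-0.51, edgeR adjusted p = 0.0482). It missed the threshold when any 1 library of the control, LPS or LPS+LA groups or LA replicate 1 was left out, with values from -0.56 to -0.40, and without both libraries with neuron transcripts (-0.51). Nuak1, a kinase chosen after its values were seen, fell by 1.94 with LPS and by 1.72 with LPS in LA (edgeR adjusted p = 3.14e-07 and 1.85e-06), and the difference between these was 0.22 and did not pass.

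**Figure D5:**
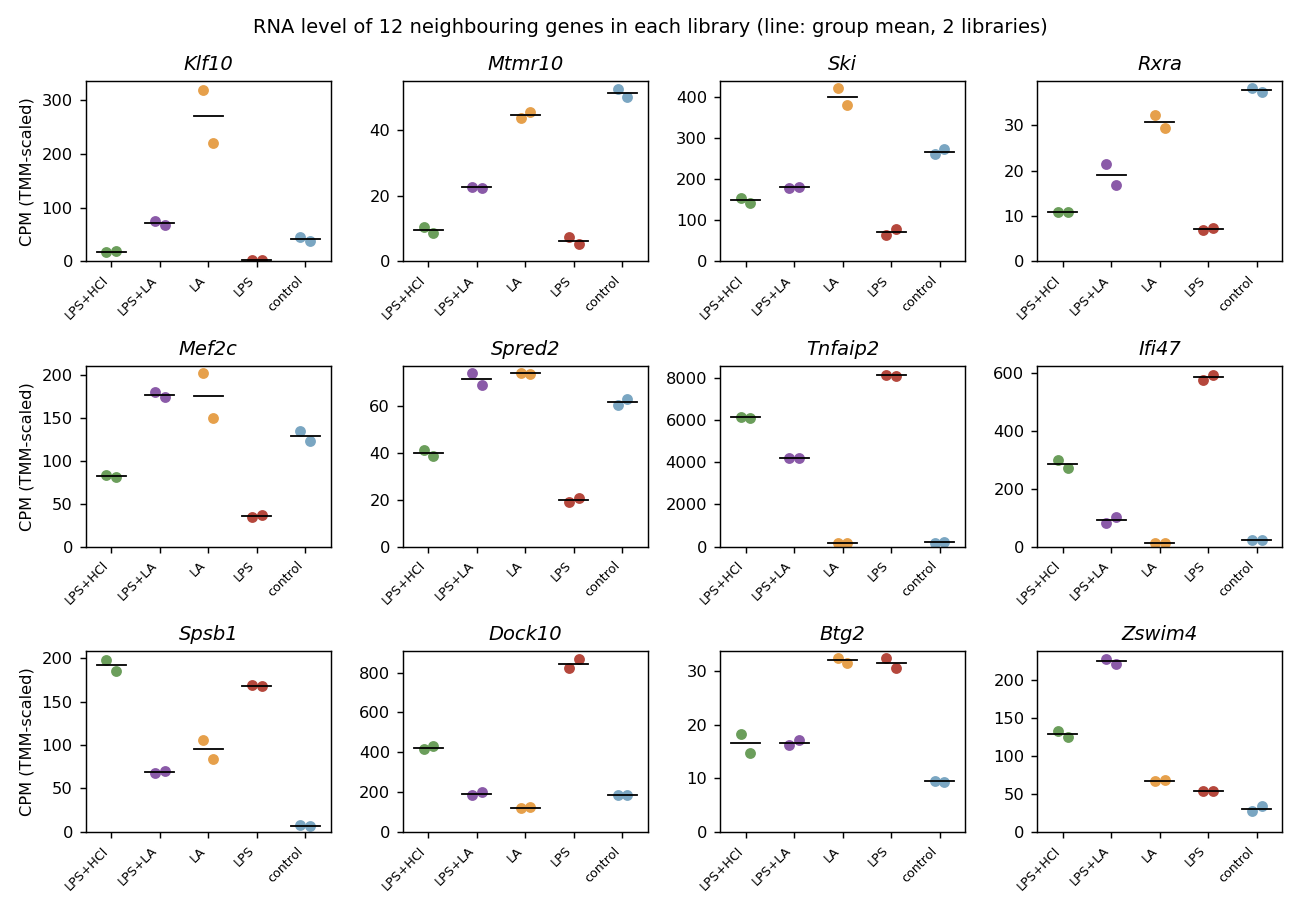
RNA level in CPM of 12 neighbouring genes in each library of the LPS+HCl, LPS+LA, LA, LPS and control groups, from left to right, with a line at the mean of the 2 libraries. Klf10, Mtmr10, Ski, Rxra, Mef2c and Spred2 are lowest with LPS, and Tnfaip2, Ifi47 and Dock10 are highest with LPS.

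Other neighbours rose with LPS. Tnfaip2, which encodes a TNF-induced protein of membrane protrusions, holds the site chr12:111444034-111444404. It had 8162 and 8116 CPM in LPS libraries, against 187 and 199 CPM in control libraries. It had 4224 and 4207 CPM in LPS+LA libraries, against 174 and 190 CPM in LA libraries. Its RNA rose by 5.40 with LPS (SE 0.072, edgeR adjusted p = 2.98e-25) and by 4.53 with LPS in LA (SE 0.0693, adjusted p = 1.16e-23), while the site inside it had no peak in any of these stimulated samples.

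Ifi47, an interferon-inducible GTPase with a closed site at chr11:49092722-49093078, had 577 and 595 CPM in LPS libraries, against 23.1 and 23.9 CPM in control libraries. It had 80.3 and 101 CPM in LPS+LA libraries, against 12.9 and 13.3 CPM in LA libraries. The rise was 4.64 with LPS and 2.79 with LPS in LA (edgeR adjusted p = 2.87e-21 and 3.25e-16). St3gal1, a sialyltransferase, rose by 3.12 and 1.48, Maml2, a coactivator of Notch, by 3.08 and 0.92, and Atf3, a stress-induced repressor, by 2.69 and 1.81, with LPS alone first and with LPS in LA second. In each of these the LPS+LA and LA libraries did not overlap, while a lack of overlap between LPS and control was a condition of naming. The rise was smaller in LA by the test of the difference. However, these genes were picked for a large rise with LPS alone, and Ifi47 and St3gal1 also for that difference. For Atf3 the difference was not called under total-count scaling.

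Spsb1, a SOCS-box protein that targets inducible nitric oxide synthase for degradation, changed in opposite directions. Its RNA was 169 and 168 CPM in LPS libraries, against 7.24 and 6.21 CPM in control libraries. It was 67.5 and 69.6 CPM in LPS+LA libraries, against 106 and 84.4 CPM in LA libraries. It rose by 4.65 with LPS (SE 0.116, edgeR adjusted p = 3.34e-20) and fell by 0.47 with LPS in LA (SE 0.0928, adjusted p = 0.00031). LA alone raised it by 3.82 over control (edgeR adjusted p = 7.56e-17). Btg2, an antiproliferative gene, followed the same pattern with 32.5 and 30.6 CPM in LPS libraries, against 9.50 and 9.38 CPM in control libraries, and 16.3 and 17.1 CPM in LPS+LA libraries, against 32.6 and 31.6 CPM in LA libraries. In all, 7 of 175 neighbours rose with LPS and fell with LPS in LA, a share of 4.0%, against 0.802% of all 12213 tested genes. The other 5 were Id2, Sdc1, Plekha5, Rilpl1 and Abcg1, the last a cholesterol exporter, and these apart from Id2 were named after their values were seen. Spsb1 and Btg2 were themselves named in part for the difference between the LPS effects in the acid states.

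Several of these 7 calls were fragile. The fall of Id2 with LPS in LA (-0.22, edgeR adjusted p = 0.0334) was lost without LA replicate 1 (-0.12) and without either LPS or LPS+LA library. Id2 changed by 0.48 with LPS, but by -0.24 under total-count scaling. The rises of Abcg1 and Rilpl1 with LPS, 0.34 and 0.52, were -0.38 and -0.20 under that scaling, and the rise of Rilpl1 was not called without control replicate 1 (0.44), without LPS replicate 2 (0.45) or without both libraries with neuron transcripts (0.44). The fall of Plekha5 with LPS in LA was 0.62 in size and was lost without LA replicate 2, where it was -0.13, without either LPS+LA library (-0.67 and -0.56) and without both libraries with neuron transcripts (-0.62). That of Sdc1 (-0.50) was lost without LA replicate 2 (-0.38), and that of Abcg1 (-0.24) without LPS+LA replicate 1 (-0.18) or LA replicate 1 (-0.23). Nav2 was the 1 neighbour that fell with LPS (-0.97) and rose with LPS in LA (0.28), a rise not called under total-count scaling (0.074).

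Among genes of lower level, also named after their values were seen, Synpo, an actin-associated protein, had 0.194 and 0.0661 CPM in LPS libraries, against 3.68 and 2.41 CPM in control libraries, and fell in both acid states (edgeR adjusted p = 7.17e-07 and 0.00143). Ccr3, a receptor of eotaxins, had 13.7 and 14.7 CPM in LPS libraries, against 2.30 and 2.29 CPM in control libraries. It rose by 2.63 with LPS and by 1.71 with LPS in LA (edgeR adjusted p = 4.32e-10 and 1.19e-05). Lag3, an inhibitory receptor better known from T cells, had 2.92 and 2.05 CPM in LPS libraries, against 0.162 and 0.321 CPM in control libraries, and also rose in both (edgeR adjusted p = 1.94e-05 and 0.00139). T cell markers, summed over the 4 measured, were 4.28 and 5.95 CPM in LPS libraries, against 0.606 and 0.521 CPM in control libraries. Of the LPS sums 4.08 and 5.95 CPM were Lck, with Cd3e and Cd3d at 0, and their part in the rise of Lag3 was not tested.

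Signalling genes beside closed sites included Dock10, a guanine nucleotide exchange factor, whose site is chr1:80637114-80637673. It had 822 and 870 CPM in LPS libraries, against 186 and 185 CPM in control libraries, and 185 and 198 CPM in LPS+LA libraries, against 117 and 122 CPM in LA libraries. It rose by 2.19 and by 0.68 (edgeR adjusted p = 1.33e-18 and 2.04e-08). Pik3r5, a regulatory subunit of phosphoinositide 3-kinase gamma, rose by 2.69 with LPS and by 1.58 with LPS in LA. Aida and Prag1 rose by 1.70 and 2.30 with LPS and by 0.25 and 0.53 with LPS in LA. The call of Aida in LA was lost without LA replicate 1 (0.24), without LPS+LA replicate 1 (0.23) or under total-count scaling (0.036). Dock10, Aida and Prag1 were among the genes named for the difference between the LPS effects in the acid states. Mertk, the receptor tyrosine kinase through which macrophages take up dying cells, is 1 of the 8 macrophage markers summed above. Its RNA was 32.9 and 38.6 CPM in LPS libraries, against 69.2 and 72.9 CPM in control libraries. It had 38.1 and 43.7 CPM in LPS+LA libraries, against 66.3 and 62.0 CPM in LA libraries. Mertk fell by 0.99 and by 0.65 (edgeR adjusted p = 4.58e-09 and 8.76e-06), and its groups did not overlap.

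The other genes with 2 sites did not share a direction. Zswim4, a zinc-finger gene, had 53.1 and 53.0 CPM in LPS libraries, against 27.5 and 33.3 CPM in control libraries, and 228 and 221 CPM in LPS+LA libraries, against 66.7 and 67.8 CPM in LA libraries. Its rise was larger in LA, 1.74 against 0.80 (difference 0.94, edgeR adjusted p = 1.02e-06), and the smaller rise was not called under total-count scaling (0.084). Otulin, a deubiquitinase of linear ubiquitin chains, differed by 0.10 with LPS (adjusted p = 0.439) and 0.08 with LPS in LA (adjusted p = 0.663), neither called by edgeR. Ptpre, a tyrosine phosphatase, differed by -0.14 with LPS, which was not called, and rose by 0.45 with LPS in LA (edgeR adjusted p = 0.000349).

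Growth and lineage genes also lay beside closed sites. Rb1, the retinoblastoma cell-cycle inhibitor, fell by 0.37 with LPS (edgeR adjusted p = 0.000645) and differed by -0.06 with LPS in LA. Runx2, a RUNX factor, had 5.31 and 8.13 CPM in LPS libraries, against 9.50 and 11.3 CPM in control libraries. It fell by 0.63 with LPS (edgeR adjusted p = 0.00436), a call lost without control replicate 2 (-0.50) or LPS replicate 1 (-0.36). Egr1, an immediate-early factor, rose by 1.95 with LPS (edgeR adjusted p = 3.65e-09) and differed by 0.23 with LPS in LA, which was not called.

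The wider gene lists are read against all tested genes, of which 32.4% fell and 32.4% rose with LPS (median -0.05), and 14.6% fell and 15.9% rose with LPS in LA (median -0.01). Of 56 macrophage regulators, 34 fell and 19 rose with LPS (median -0.58), and 24 fell and 15 rose with LPS in LA (median -0.18). Of these 56 genes 3, Mef2c, Rxra and Id2, neighboured a closed site, as did 187 of the 15959 genes with a position. The difference between these shares was not tested. Of 54 receptors of chemoattractants, lipids and nucleotides, 27 fell and 23 rose with LPS (median -0.30), and 11 fell and 20 rose with LPS in LA (median 0.06). Of 56 genes of small GTPase and phosphoinositide signalling, 23 fell and 25 rose with LPS (median 0.10), and 13 fell and 13 rose with LPS in LA (median -0.04). Of 35 tested growth and cell-cycle genes, 27 fell and 6 rose with LPS (median -0.62), and 12 fell and 4 rose with LPS in LA (median -0.08). Of 81 tested genes of factors that bind the motifs searched, 35 fell and 39 rose with LPS (median 0.10), and 21 fell and 35 rose with LPS in LA (median 0.21). Among these the 3 MEF2 genes all fell with LPS and 2 fell with LPS in LA, while all 5 NF-kB genes rose in both.

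Sites inside a gene and sites beside one differed little in the share of rises with LPS. Genes holding a closed site rose in 56 of 115 cases (48.7%) and fell in 31 (27.0%), and genes with a site outside rose in 29 of 60 (48.3%) and fell in 23 (38.3%). With LPS in LA, genes holding a site rose in 36 of 115 cases (31.3%) and fell in 17 (14.8%), and genes with a site outside rose in 11 of 60 (18.3%) and fell in 17 (28.3%). The difference between these shares was not tested.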

How the data were processed

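ATAC-seq reads were aligned with BWA 0.5.9 to mm10 (GRCm38) and handled with Picard, and peaks were called with MACS2 2.0.10, per the submitters' processing notes. Lists were made per sample, and the score column was deposited by the authors with no stated definition. The peak lists give no read depth, so no counting error can be given for a peak. RNA values are expected counts (6.07% not whole) deposited by the authors in 1 table, as its column names state. The submitters' processing notes name HISAT and Bowtie2 with GRCm38.p6, and the sources used here do not give the strand setting, so overlapping genes are uncertain.

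Peaks were merged at 1 bp of overlap with pandas 2.3.3 (Python 3.11.15). Expected counts were rounded, filtered (minimum count 10, total 15; 12213 of 16059 genes kept), TMM-scaled (factors 0.759 to 1.27) and tested with edgeR 4.0.16 (R 4.3.3), with 1 term per group over all 10 libraries and Benjamini-Hochberg adjustment over all tested genes at 0.05; steps were tested on simulated data. All fold changes are log2 of the first-named group over the second. RefSeq positions matched 15959 genes. Named genes were the 12 neighbours with the largest falls and 6 with the largest rises with LPS that also had non-overlapping groups and a level of at least 10 CPM, the 8 with the smallest adjusted p for the interaction, and neighbours on 5 gene lists or with more than 1 site; 1 gene so named is not reported here. The members and lists were chosen with earlier results of these data known. Replicates differed beyond counting error. Same-numbered libraries of the groups compared with control, LA, LPS or LPS+LA did not deviate together (r from -0.05 to 0.05); r was -0.50 between control and LPS+HCl, which are not compared.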

Additional observations from a re-analysis of the deposited data

Results flagged for a closer look

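The effect of LPS on RNA differed between the acid states for 42 of the 47 genes named and tested, by edgeR's test of the difference (the log2 change with LPS in LA minus that with LPS alone, adjusted over all tested genes). Such genes were in part named for that difference, so their number has no reading of its own.

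For 21 genes the difference was above 0, so the change with LPS was more positive or less negative in LA. These were Synpo (2.73), 6430548M08Rik (2.27), Slco2b1 (2.09), Mtmr10 (2.03), 2900026A02Rik (1.93), Mef2c (1.87), Klf10 (1.78), Rxra (1.72), Spred2 (1.59), Disc1 (1.54), Midn (1.27), Nav2 (1.25), Rnf169 (1.19), Unc119 (1.18), Zswim4 (0.94), Ski (0.74), Runx2 (0.60), Cdkn2aipnl (0.59), Ptpre (0.59), Mertk (0.34) and Rb1 (0.32). For the other 21 it was below 0, so the change with LPS was less positive or more negative in LA. These were Spsb1 (-5.12), Btg2 (-2.68), Maml2 (-2.16), Plekha5 (-2.06), Ifi47 (-1.85), Prag1 (-1.77), Egr1 (-1.72), St3gal1 (-1.64), Rilpl1 (-1.63), Sdc1 (-1.59), Dock10 (-1.51), Aida (-1.45), Pik3r5 (-1.11), Ccr3 (-0.92), Atf3 (-0.88), Tnfaip2 (-0.86), Atp8b2 (-0.76), Id2 (-0.70), Abcg1 (-0.58), Cask (-0.52) and Emp3 (-0.45). The largest differences were those of Spsb1, Btg2 and Maml2 below 0 and of Synpo and 6430548M08Rik above 0 among these genes. The calls of Mertk, Rb1, Runx2 and Ccr3 rested on adjusted p-values of 0.0486, 0.0388, 0.0403 and 0.0384 and were lost when any of several single libraries was left out, and those of Mertk (0.38), Rb1 (0.35) and Ccr3 (-0.92) also without both libraries with neuron transcripts. That of Synpo was lost without LPS replicate 2 (2.19). That of Cask was lost without control replicate 2 (-0.42), without LPS replicate 2 (-0.41) and under total-count scaling (-0.01). Groups of 2 or 3 samples were too small for a check of single samples.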

How the results depend on the processing

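Precision was limited by 2 RNA libraries per group and by peak lists that give no depth. The number of closed sites was 960 with lists of equal length and 230 to 369 when 1 ATAC-seq sample was left out and the sites merged anew, 369 without LA replicate 1. The opened sites, an alternative added after seeing the data, numbered 2276 with equal lists.

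Total-count scaling moved 9 of the 10 counts of neighbouring genes, to 44 higher and 111 lower with LPS against control, 31 and 64 with LPS+LA against LA, 58 lower with LA against control, 95 and 42 with LPS+LA against LPS, and 82 and 29 for the interaction. Taking every gene within 50 kb gave 149 higher and 128 lower, 84 and 65, 110 and 70, 140 and 123, and 98 and 110 in the comparisons in the same order, by its construction from more genes.

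Total-count scaling also turned round 14 values of named genes. With LPS against control these were Abcg1 (-0.38), Atp8b2 (-0.0039), Cask (-0.19), Emp3 (-0.23), Id2 (-0.24), Otulin (-0.62) and Rilpl1 (-0.20). With LPS+LA against LA this was Emp3 (-0.17). With LPS+LA against LPS these were Cmtm7 (0.40), Emp3 (0.28), Id2 (0.29) and Prag1 (0.10), and for the interaction Emp3 (0.060) and Otulin (0.49). The cause was not tested. Of 4506 recomputed values of named genes, 4285 kept their direction and their side of the threshold.

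With the replicate number as a block, the counts were 85 higher and 54 lower with LPS against control and 47 and 34 with LPS+LA against LA, as without it, and it changed no named call to a loss. Same-numbered libraries did not pair. Motif searches over whole sites were not run, since no genome was used here.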

Other observations

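LPS in medium acidified with HCl was measured by RNA-seq alone, so the closed sites could not be scored there. Klf10 had 17.1 and 19.7 CPM in LPS+HCl libraries, against 2.79 and 3.50 CPM in LPS libraries. Mef2c had 83.2 and 81.7 CPM in LPS+HCl libraries, against 34.2 and 36.9 CPM in LPS libraries. Spred2 had 41.1 and 38.9 CPM in LPS+HCl libraries, against 19.1 and 20.6 CPM in LPS libraries. In these 3 genes the LPS+HCl libraries lay between the LPS libraries and the LPS+LA libraries. Not every large fall followed that order. For 6430548M08Rik, LPS+HCl libraries had 5.67 and 6.24 CPM, against 6.54 and 5.42 CPM in LPS libraries.

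Spsb1 did not follow that order, with 199 and 186 CPM in LPS+HCl libraries, against 169 and 168 CPM in LPS libraries, both above the LPS+LA libraries. Maml2 and Pik3r5 did follow it. The log2 difference between LPS+HCl and LPS was not called for Spsb1 (0.19) or Pik3r5 (-0.13, edgeR adjusted p = 0.0987 and 0.105). Maml2 had 60.8 and 64.1 CPM in LPS+HCl libraries, against 79.9 and 86.2 CPM in LPS libraries, and 8.19 and 9.06 CPM in LPS+LA libraries. Pik3r5 had 1437 and 1468 CPM in LPS+HCl libraries, against 1630 and 1558 CPM in LPS libraries, and 623 and 668 CPM in LPS+LA libraries. The pH of the medium in each group was not given in the sources used here beyond the example of pH 6.5, so the groups cannot be compared at matched pH.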
